A study of Mus musculus with 32 samples.

Results

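Immediate early genes are transcribed within minutes of a stimulus, before any new protein is made. Here 32 immediate early and stress-response genes were described, chosen by name with earlier results of these data known. They include 8 subunits of the transcription factor AP-1 and 10 factors of the EGR, NR4A and KLF families together with Myc. The others are 11 phosphatases and other feedback regulators, and 3 heat shock genes. All 32 of 32 were among the 24421 genes counted, and all 32 were among the 13453 genes tested. C57BL/6J mice gave epididymal fat, a visceral depot, from which macrophages were sorted for bulk RNA-seq. The mice were wild type (WT) or lacked A20 in myeloid cells (KO). Tnfaip3 is the gene of A20, a brake on NF-kB that acts by editing ubiquitin chains. Their food was high in fat (HFD) or standard (SD), and feeding lasted 12 weeks. From each genotype and diet a CD11c+ population (high CD11c, low CD206) and a CD206+ population (high CD206, low CD11c) were sorted, which gave 8 groups of 4 libraries. The labels give no Cre driver, age or batch, and do not say whether 1 library is 1 mouse. The p-values therefore measure the spread between these libraries, part of which may be technical.

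Growth factors, cytokines and Toll-like receptor ligands reach these genes through MAP kinases. ERK phosphorylates factors that act with SRF at CArG boxes, and CREB acts at cyclic AMP response elements (CRE). FOS and JUN proteins pair as AP-1. EGR and NR4A proteins are zinc finger factors and orphan nuclear receptors. DUSP phosphatases inactivate MAP kinases, and Zfp36 binds AU-rich mRNAs and hastens their decay. Hspa1a, Hspa1b and Dnajb1 encode HSP70 chaperones and an HSP40 partner, and are transcribed by HSF1 when proteins misfold. In macrophages the same genes respond to lipopolysaccharide and adhesion, and in many tissues they also respond to enzymatic digestion and sorting.

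Gene counts per library ran from 17.6 to 23.8 (median 20.2) in units of 1e+06, and values are given as CPM (counts per 1e+06 counts in genes) scaled by trimmed mean of M-values (TMM). Tnfaip3 read 167 to 474 CPM in the 16 KO libraries and 486 to 1647 CPM in the 16 WT libraries. It was lower in KO in each of the 4 population and diet pairs. Itgax, which encodes CD11c, read 146 to 379 CPM in the CD11c+ libraries and at most 8.24 CPM in the CD206+ libraries outside WT HFD, where it read 20.7 to 50.3 CPM. Mrc1, which encodes CD206, read 401 to 723 CPM in CD11c+ and 1290 to 2148 CPM in CD206+ libraries. On the third principal component the 8 libraries of WT mice on SD lay at -66.5 to -42.7 and the other 24 at -0.608 to 44.6, a separation present in each comparison that uses them. The labels name no batch, so a batch and the WT SD condition cannot be told apart in those comparisons. Both libraries numbered 4 of KO mice on SD were low for these genes. In bulk samples fewer cells of a type and less RNA per cell cannot be told apart.

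Promoter sequence was read from RefSeq (GRCm38.p6), from 250 bases before to 50 after the start of each gene. It matched 27 of the 32 genes, with 32 promoters, and held none for Egr1, Egr3, Fosl1, Ier2 and Myc. Sites farther from a start were not searched. CArG boxes lay in 18.8% of these promoters and in 1.63% of all 32851 promoters. By gene this was 3 of 27, namely Dusp5, Egr2 and Zfp36. Egr2 has 5 promoters in the table, some of which overlap, so the promoters are not independent. The CRE letters TGACGTCA lay in 6.25% of the members' promoters and 1.79% of all, in Btg2 and Dusp1. AP-1 sites (TGAGTCA or TGACTCA) lay in none of them and in 5.2% of all. NF-kB sites lay in 25% against 8.46%. Exact matches to the heat shock element pattern searched for HSF1 lay in none of the members' promoters and in 0.603% of all. Hspa1a and Hspa1b were among the members without a match. Looser forms of the element were not searched for, so the lack of a match does not show that these promoters lack a heat shock element. Both strands were searched. These matches describe letters in a window and show no binding. The 180 bases before a start are shown for 7 genes whose levels differ below, with CArG, CRE and NF-kB matches in capitals, 5′ to 3′ on the gene's own strand. The Egr2 stretch precedes an alternative start inside the annotated gene, and the other 6 end at the base before the gene's own start. For Dusp5, Zfp36 and Egr2 the capitals are CArG boxes, for Dusp1 and Btg2 CRE, and for Hspa1a and Hspa1b an NF-kB match.
Dusp5 (chr19:53528965-53529144, + strand): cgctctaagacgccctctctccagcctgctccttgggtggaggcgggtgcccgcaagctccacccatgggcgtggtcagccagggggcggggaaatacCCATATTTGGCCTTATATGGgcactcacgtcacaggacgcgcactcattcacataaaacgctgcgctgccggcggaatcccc
Zfp36 (chr7:28379229-28379408, - strand): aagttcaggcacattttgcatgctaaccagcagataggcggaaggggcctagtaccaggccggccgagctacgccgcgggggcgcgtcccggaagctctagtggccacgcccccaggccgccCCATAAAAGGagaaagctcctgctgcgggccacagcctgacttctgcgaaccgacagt
Egr2 (chr10:67537689-67537868, + strand): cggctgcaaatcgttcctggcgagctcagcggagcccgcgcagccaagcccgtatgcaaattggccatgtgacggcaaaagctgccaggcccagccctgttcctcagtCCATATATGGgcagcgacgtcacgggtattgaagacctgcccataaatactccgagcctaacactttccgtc
Dusp1 (chr17:26508473-26508652, - strand): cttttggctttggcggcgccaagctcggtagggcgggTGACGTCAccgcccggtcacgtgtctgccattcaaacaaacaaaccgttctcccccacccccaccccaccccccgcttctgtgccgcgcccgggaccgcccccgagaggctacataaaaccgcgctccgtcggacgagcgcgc
Btg2 (chr1:134079156-134079335, - strand): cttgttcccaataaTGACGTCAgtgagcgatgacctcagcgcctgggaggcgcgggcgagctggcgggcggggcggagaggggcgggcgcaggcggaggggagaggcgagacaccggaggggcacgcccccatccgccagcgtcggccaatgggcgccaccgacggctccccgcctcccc
Hspa1a (chr17:34972157-34972336, - strand): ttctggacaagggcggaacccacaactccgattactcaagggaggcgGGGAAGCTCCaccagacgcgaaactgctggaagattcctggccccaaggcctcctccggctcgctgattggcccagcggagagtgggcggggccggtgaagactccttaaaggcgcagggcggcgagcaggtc
Hspa1b (chr17:34959239-34959418, - strand): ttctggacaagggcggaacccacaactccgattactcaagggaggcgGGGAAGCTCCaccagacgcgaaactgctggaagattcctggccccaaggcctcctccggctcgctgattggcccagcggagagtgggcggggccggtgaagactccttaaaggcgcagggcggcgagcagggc
Dusp5 lies at chr19:53529145-53541809 and Zfp36 at chr7:28376784-28379228. Egr2 lies at chr10:67534469-67542188, Dusp1 at chr17:26505591-26508472 and Btg2 at chr1:134074865-134079155, all in GRCm38. Dusp5 holds 2 CArG boxes in a row, at 82 and 72 bases before its start. Hspa1a and Hspa1b are neighbours on chromosome 17, at chr17:34969359-34972156 and chr17:34956429-34959238, and their 180-base windows differ at 1 base. Their coding sequences are identical at 1918 bases (99.43%), so reads may have been split between them by counting settings that the sources do not give. Junb, Dusp1 and Fosl1 each overlap a gene on the opposite strand that is also counted (Prdx2, Ergic1 and Ccdc85b), and the strand setting is not given.

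The highest mean lay in CD11c+ WT SD for 14 of the 32 genes and in CD206+ WT SD for 13. The lowest mean lay in CD11c+ WT HFD for 19 genes. Summed over the 32 genes, CD11c+ libraries read 24120 to 29566 CPM in WT SD, 11846 to 13698 in WT HFD, 14726 to 19848 in KO SD and 13991 to 18889 in KO HFD. CD206+ libraries read 32382 to 39786, 18073 to 20978, 17863 to 35175 and 21459 to 24592 CPM in the same order. Per kilobase of exon in CD206+ WT SD, Fos (1886), Junb (1703) and Egr1 (1321) had the highest levels and Fosl1 (0.339) the lowest. Fosl1 was close to the limit of the data, with 9 to 40 counts in a library. The heatmap of all 32 genes by library shows these levels.

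**Figure D1:**
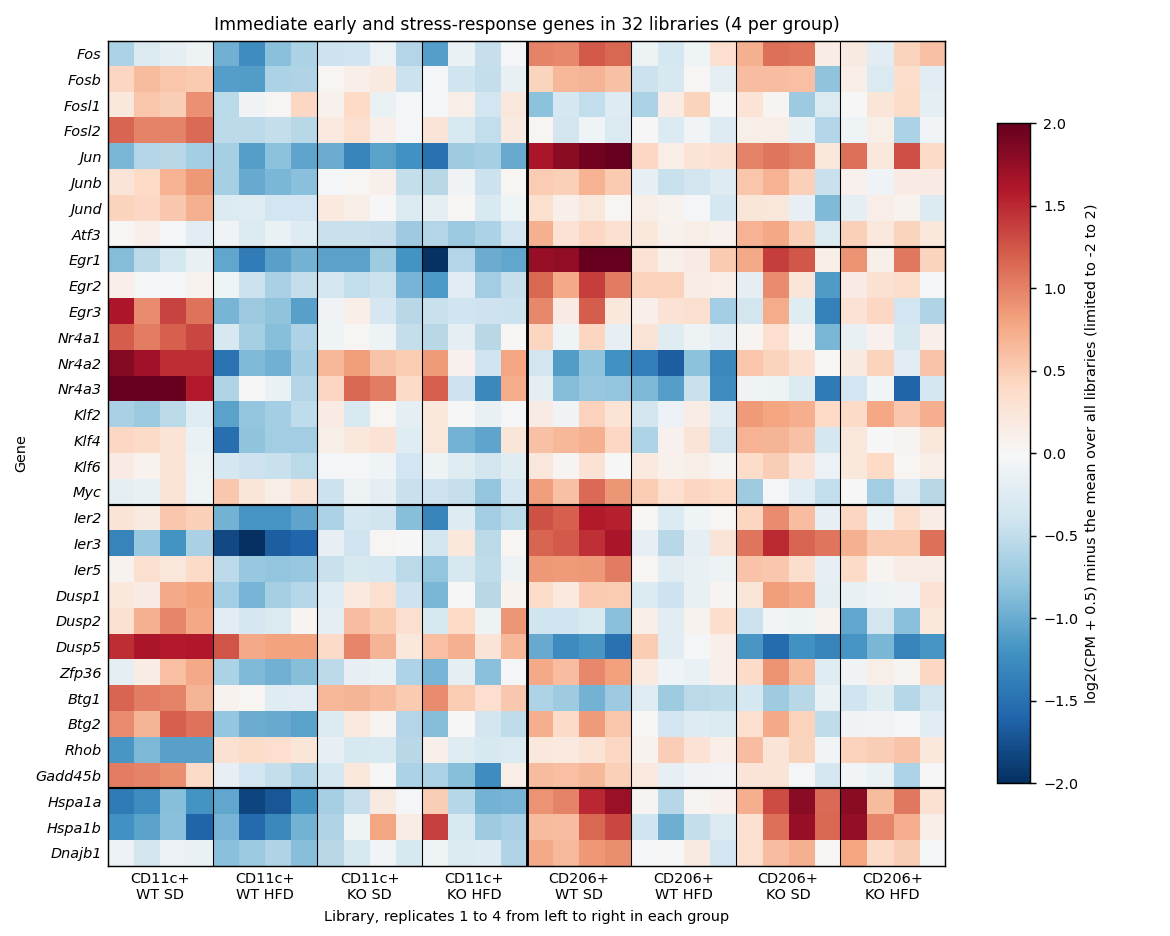
Level of each of the 32 genes (rows, grouped by role) in each of the 32 libraries (columns, grouped by population, genotype and diet), as log2 CPM minus the gene's mean over all libraries. CD11c+ WT SD holds the highest mean for 14 genes and CD206+ WT SD for 13, and CD11c+ WT HFD holds the lowest for 19.

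On HFD these genes were lower in WT macrophages of both populations. In CD11c+ WT, 23 of 32 fell on HFD and 1 rose, where 22.6% and 23.8% of all genes tested fell and rose. Their median log2 difference was -0.88, against 0.01 over all genes. In CD206+ WT, 18 fell and 1 rose, against 13.5% and 14.2% of all genes, with medians of -0.64 and -0.02. The libraries of the diets did not overlap for 24 genes in CD11c+ and 21 in CD206+, where 40.2% and 31.4% of all genes did not. With library totals in place of TMM, 63.5% of all called genes in CD11c+ WT were higher on HFD instead of 51.3%, and 21 members fell and 2 rose. Atf3, Fosl1 and Klf2 passed the test in no diet comparison.

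No member passed the test for diet in KO macrophages. In CD11c+ KO, edgeR called 0 of 32 (0 at an unadjusted p under 0.05; DESeq2 called 0), where it called 0.00743% of all genes. In CD206+ KO it called 0 of 32 (4 at an unadjusted p under 0.05; DESeq2 called 0), where 0% of all genes passed. DESeq2 called 51 and 18 of all genes in these comparisons. The libraries of the diets overlapped for all 32 members in both, where 3.31% and 4.3% of all genes did not. The members' medians were -0.11 and -0.13 on the log2 scale. The difference of the diet effects between genotypes passed the test for 20 members in CD11c+, 19 of them with the smaller fall in KO and 1 the other way, where 13.9% and 15% of all genes passed in each direction. In CD206+ it passed for 6 and 1 members, against 5.23% and 6.63% of all genes. With library totals alone, 36.8% of the CD11c+ calls over all genes were positive instead of 48.1%, and the members gave 15 and 2.

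The genotype comparison had more members higher in KO on HFD and more lower in KO on SD, with fewer calls in CD206+ than in CD11c+. In CD11c+ on HFD, 13 members were higher in KO and 3 lower, where 18.6% and 19.4% of all genes were; on SD 5 were higher and 16 lower, against 13.2% and 13.6%. In CD206+ on HFD, 7 were higher and 2 lower, against 10.5% and 11.3%; on SD 2 were higher and 7 lower, against 11.8% and 12.7%. The members' median log2 differences were 0.44, -0.53, 0.20 and -0.17 in that order. Without CD206+ KO HFD 1 the 9 calls in CD206+ HFD became 6. The 4 comparisons share groups with the diet comparisons, so a high level in WT SD enters both. In settings chosen after the data were seen, without both KO SD libraries numbered 4 the SD counts were 4 higher and 15 lower in CD11c+ and 3 and 6 in CD206+. Without both KO HFD libraries numbered 1, the HFD counts were 12 and 2, and 5 and 2. With library totals alone, the share of all called genes that were higher in KO moved from 48.1% to 36.8% in CD206+ HFD and from 48.3% to 38% in CD206+ SD, and the members gave 6 and 2, and 2 and 9. Genotype libraries did not overlap for 13, 20, 9 and 7 members in the order above, where 34.7%, 23.4%, 25.6% and 27.6% of all genes did not. Only the count of 20 in CD11c+ SD was far above its share. Klf2 was the 1 member higher in KO in all 4 pairs, and Fosl1, Klf6, Dusp1 and Dusp2 passed in none.

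More members were lower than higher in CD11c+ against CD206+ macrophages in each of the 4 pairs. The WT SD counts lay nearest the shares of all genes. The counts lower and higher were 18 and 2 in WT HFD (8.7% and 11.7% of all genes), 14 and 9 in WT SD (33.5% and 30.2%), 14 and 3 in KO HFD (22.5% and 23.3%) and 17 and 3 in KO SD (26.1% and 25.6%). Fos, Jun, Egr1, Egr2, Klf2, Ier2, Ier3, Ier5, Hspa1a and Dnajb1 were lower in all 4 pairs, and Dusp5 and Btg1 higher in all 4. Some of these calls were lost when 1 library was left out. For Egr2 this held for any 1 of 6 of the 8 libraries in WT HFD and any 1 of 2 in KO SD, CD11c+ KO SD 4 and CD206+ KO SD 2 (-0.94 to -0.28 over the 8). For Btg1 it held for any 1 of 5 in WT HFD (0.33 to 0.50), and for Fos for CD11c+ KO HFD 1 (adjusted p = 0.0519). The Btg1 call in WT HFD was also lost with library totals alone (adjusted p = 0.0592), and the Egr2 call in KO SD in a fit of only the groups compared (adjusted p = 0.104). Dusp1 and Gadd45b passed in none in the main fit, which did not pair libraries by number, though in WT HFD their libraries did not overlap. With all libraries kept, the main and alternative settings called 19 to 26 members in WT HFD and 23 to 26 in WT SD. In KO they called 16 to 24 on HFD and 18 to 23 on SD. The libraries of the populations did not overlap for 23, 23, 13 and 14 members, against 27.9%, 54.2%, 37.9% and 44.4% of all genes. In KO HFD and KO SD these counts were near the shares of all genes. With library totals alone the share of all called genes higher in CD11c+ moved from 57.4% to 40.1% in WT HFD and from 47.4% to 34.5% in WT SD, and the members gave 20 lower and 1 higher, and 15 and 8. Without both KO SD libraries numbered 4 the KO SD counts were 18 and 3, and without both KO HFD libraries numbered 1 the KO HFD counts were 12 and 3. The plot of log2 differences gives every member.

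**Figure D2:**
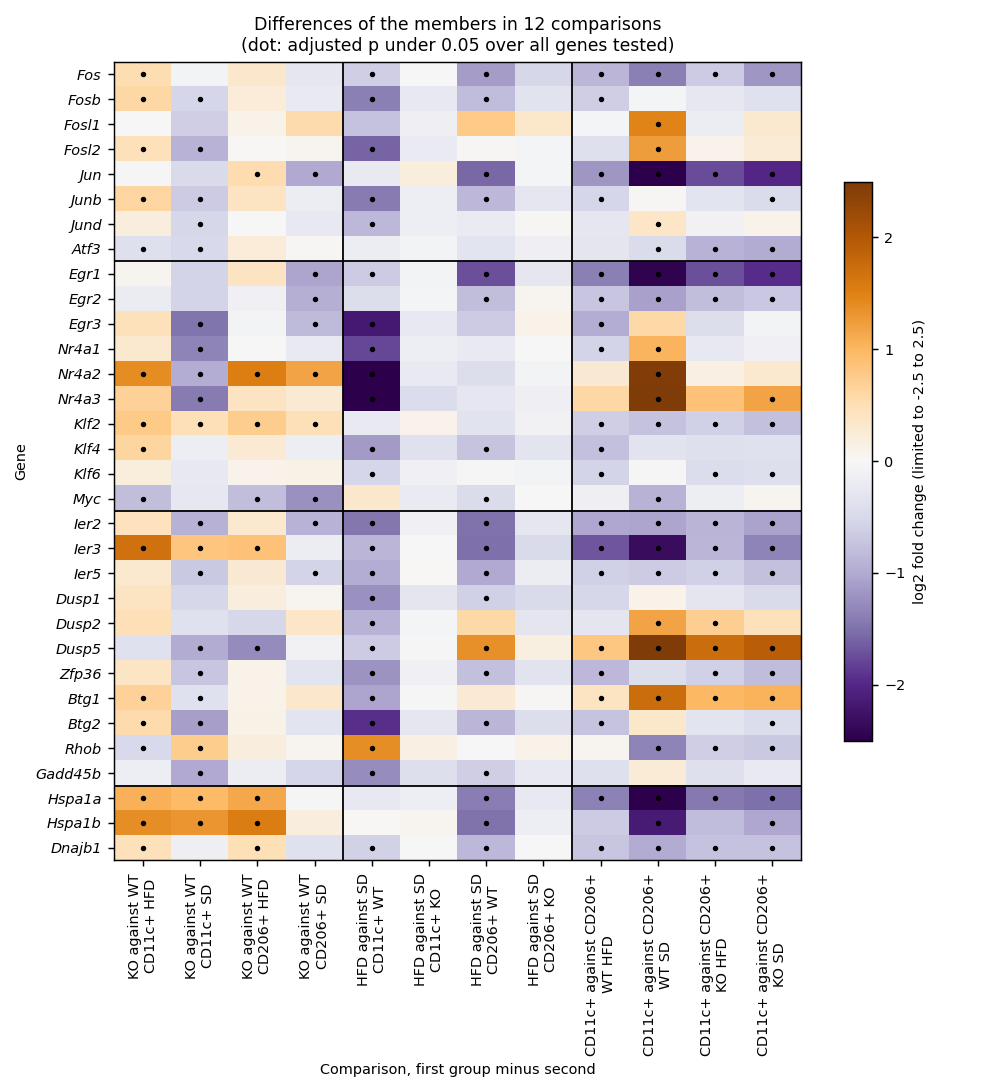
Log2 difference of each gene (rows) in each of the 12 comparisons (columns), with a dot where the adjusted p was under 0.05. Diet columns in WT are mostly below 0, the KO diet columns hold no dot, and the KO against WT columns hold more higher than lower dots on HFD and more lower than higher dots on SD.

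Among AP-1 subunits, Jun, the FOS partner with the widest range here, read 1948, 2206, 2396 and 2612 CPM in CD206+ WT SD and 835, 692, 760 and 779 CPM in CD206+ WT HFD. The groups did not overlap, and it fell by 1.58 ± 0.20 (SE) on the log2 scale (n = 4 against 4, adjusted p = 5.52e-07). In CD206+ KO it read 1254, 1316, 1267 and 740 CPM on SD and 1354, 730, 1534 and 818 CPM on HFD, which overlap. In CD11c+ it was far lower, at 223 to 429 CPM in all 16 libraries. Its difference between CD11c+ and CD206+ was -2.54 ± 0.21 in WT SD (adjusted p = 1.52e-11) and -1.19 ± 0.20 in WT HFD (adjusted p = 6.34e-05). KO CD206+ macrophages were lower in Jun than WT on SD (-1.0 ± 0.20, adjusted p = 0.000296) and higher on HFD (0.53 ± 0.19, adjusted p = 0.0481). The latter call ended without any 1 of 6 of the 8 libraries and under the replicate block (0.50, adjusted p = 0.0524).

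Fos, the short-lived partner of JUN, read 4158, 4076, 4900 and 4608 CPM in CD206+ WT SD and 1933, 1636, 1964 and 2623 CPM in CD206+ WT HFD, without overlap. It fell by 1.12 ± 0.21 (adjusted p = 0.000137). In CD11c+ WT it read 1339, 1701, 1822 and 1936 CPM on SD and 1074, 877, 1164 and 1343 CPM on HFD, where 1 SD library lay under the highest HFD library (-0.61 ± 0.20, adjusted p = 0.0153), and the call ended without CD11c+ WT HFD 2 (adjusted p = 0.0528). In KO CD11c+ HFD, Fos read 975, 1893, 1514 and 2024 CPM. It was higher than in WT (0.52 ± 0.20, adjusted p = 0.0436), a call that ended without any 1 of 5 libraries. Fosl2, a slower FOS family member, read 386, 345, 344 and 380 CPM in CD11c+ WT SD and 120, 121, 125 and 118 CPM in CD11c+ WT HFD. That fall of 1.59 ± 0.16 (adjusted p = 1.27e-09) had no counterpart in CD206+ WT, where the libraries read 134 to 178 CPM on SD and 143 to 172 CPM on HFD, and the difference between populations passed (-1.61 ± 0.22, adjusted p = 2.16e-06). KO CD11c+ SD libraries read 199, 217, 185 and 170 CPM, below WT SD (-0.92 ± 0.15, adjusted p = 3.75e-05).

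Fosb, a FOS paralog whose truncated form accumulates in chronically stimulated cells, read 492, 566, 536 and 520 CPM in CD11c+ WT SD and 170, 167, 235 and 239 CPM in CD11c+ WT HFD. It fell by 1.38 ± 0.21 (adjusted p = 2.17e-06). In CD206+ KO SD it read 558, 559, 549 and 208 CPM, where library 4 alone was low. Its KO calls in CD11c+ were 0.59 on HFD and -0.54 on SD, and each ended without any 1 of several libraries (4 and 6 of 8). Of the 8 AP-1 genes, 5 fell on HFD in CD11c+ WT and 4 in CD206+ WT, where 22.6% and 13.5% of all genes fell. Junb fell by 1.43 ± 0.17 and 0.86 ± 0.17 in those populations. Fosl1, at 0.689 to 1.94 CPM in group means, passed the diet test in neither population.

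**Figure D3:**
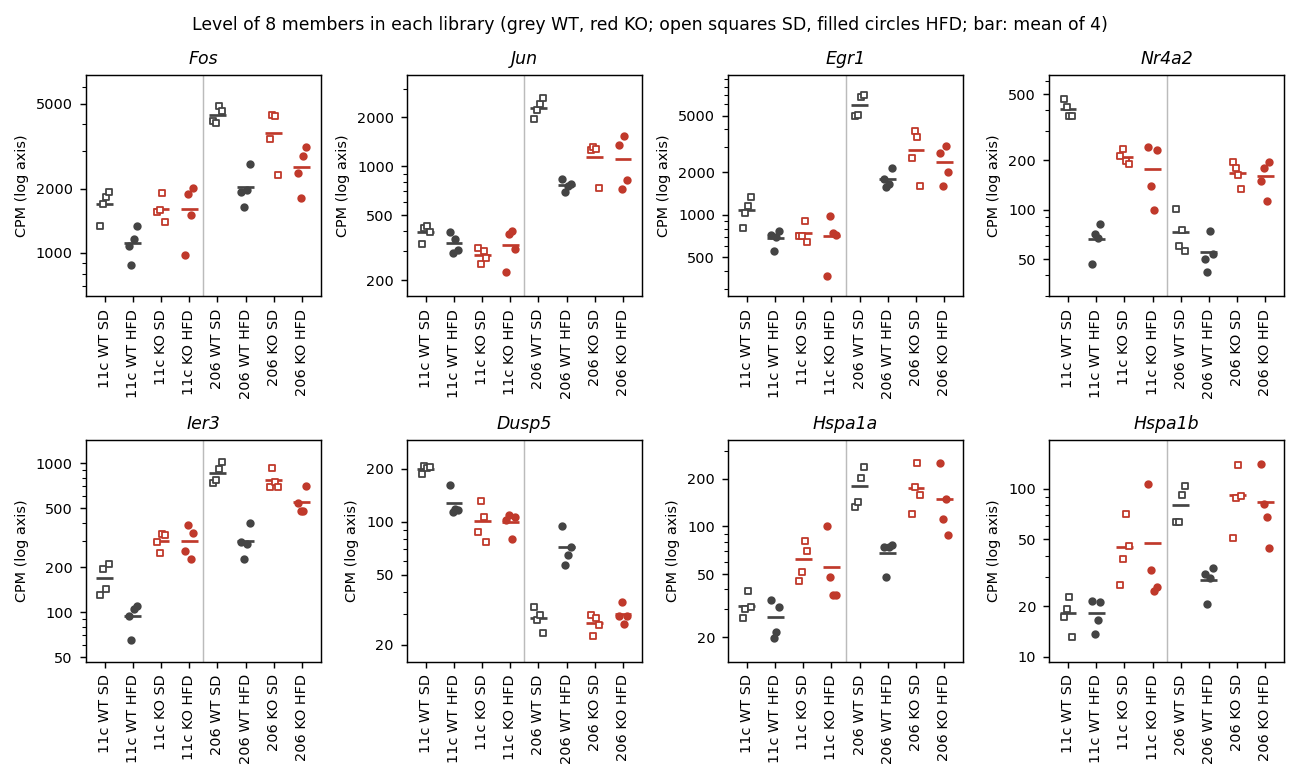
CPM of Fos, Jun, Egr1, Nr4a2, Ier3, Dusp5, Hspa1a and Hspa1b in each library, on a log axis, by group (points are libraries, bars the mean of 4, grey WT, red KO, open squares SD, filled circles HFD). Nr4a2 and Dusp5 stand highest in CD11c+ WT SD, Jun and Egr1 in CD206+ WT SD, and 1 CD11c+ KO HFD library is far above the other 3 for Hspa1b.

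Among the other transcription factors, Nr4a2, an orphan nuclear receptor that binds DNA without a ligand, read 471, 422, 367 and 369 CPM in CD11c+ WT SD and 46.8, 71.1, 67.4 and 82 CPM in CD11c+ WT HFD. The groups were far apart, and Nr4a2 fell by 2.61 ± 0.24 on the log2 scale (adjusted p = 2.53e-10), the largest fall of any member on this diet comparison. In KO CD11c+ the values were 210, 235, 196 and 189 CPM on SD and 238, 140, 99.6 and 229 CPM on HFD, so KO lay below WT on SD (-0.97 ± 0.22, adjusted p = 0.0015) and above it on HFD (1.4 ± 0.23, adjusted p = 1.31e-05). In CD206+ WT it read 101, 60.4, 75.5 and 56.5 CPM on SD and 50.3, 41.8, 74.5 and 53.8 CPM on HFD, which overlap. KO CD206+ read 193, 179, 162 and 134 CPM on SD and 150, 180, 113 and 196 CPM on HFD, above WT on both diets (1.19 ± 0.23 and 1.54 ± 0.23, adjusted p = 0.000232 and 7.07e-06). On SD the genotype effect differed between populations (-2.16 ± 0.32, adjusted p = 9.93e-05).

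Nr4a3, its close relative, read 168, 144, 119 and 84.3 CPM in CD11c+ WT SD, 18, 27.7, 25.1 and 18.2 CPM in CD11c+ WT HFD and 24.3, 14.9, 16.1 and 15.9 CPM in CD206+ WT SD. The first group stood above the other 2 without overlap, with differences of -2.53 ± 0.38 for diet (adjusted p = 2.43e-06) and 2.86 ± 0.39 for population (adjusted p = 2.98e-07). Nr4a1, the third NR4A receptor, followed with group means of 2780 CPM in CD11c+ WT SD and 802 to 1373 CPM elsewhere. Nr4a1 also belongs to the monocyte marker list used below. Egr3, a relative of Egr1, read 79.9, 50.4, 66.4 and 55.1 CPM in CD11c+ WT SD and 13.4, 15.5, 14.6 and 11.9 CPM in CD11c+ WT HFD, and fell by 2.19 ± 0.31 (adjusted p = 9.07e-07). Its CD206+ KO SD libraries ranged from 9.83 to 43.5 CPM, and the lower level than in WT (-0.84 ± 0.30, adjusted p = 0.0391) ended without any 1 of 5 libraries.

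Egr1 is a zinc finger factor induced by ERK. In WT SD it was lower in CD11c+ than in CD206+ macrophages, where the 3 NR4A genes were higher. It read 4957, 5037, 6732 and 6963 CPM in CD206+ WT SD, 1799, 1581, 1653 and 2120 CPM in CD206+ WT HFD, and 808, 1027, 1152 and 1329 CPM in CD11c+ WT SD. The 3 groups did not overlap, and the population difference in WT SD was -2.46 ± 0.25 (adjusted p = 2.05e-09). On HFD it fell by 1.73 ± 0.25 in CD206+ (adjusted p = 4.62e-06). KO CD206+ SD libraries read 2504, 3866, 3510 and 1595 CPM, below WT SD (-1.05 ± 0.24, adjusted p = 0.00196). In CD11c+ WT the fall was 0.66 ± 0.24 (adjusted p = 0.0265) and the call ended without any 1 of 3 libraries.

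Klf2, which restrains inflammatory gene expression in myeloid and endothelial cells, averaged 307 and 264 CPM in CD11c+ WT on SD and HFD and 424 and 448 CPM in KO. In CD206+ the means were 515 and 405 CPM in WT and 720 and 677 CPM in KO. It was higher in KO in each pair, by 0.47 to 0.76 on the log2 scale. Myc, a driver of growth programs, went the other way in 3 of 4 pairs, with means of 52.2 (WT) and 30.4 (KO) CPM in CD206+ HFD, 71.7 and 30.6 in CD206+ SD and 48 and 27.6 in CD11c+ HFD, all of which passed; in CD11c+ SD the means were 38.2 and 31.9 CPM.

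Among the feedback regulators was Ier3, an NF-kB target that limits cell death signals. It read 743, 773, 915 and 1028 CPM in CD206+ WT SD and 131, 196, 144 and 211 CPM in CD11c+ WT SD. Ier3 differed between them by -2.34 ± 0.20 (adjusted p = 3.46e-11). In CD11c+ WT HFD it read 94.9, 65.3, 105 and 110 CPM, and in CD11c+ KO 294, 252, 337 and 328 CPM on SD and 256, 383, 228 and 339 CPM on HFD. Every KO library of this population lay above every WT library, by 0.83 ± 0.19 on SD (adjusted p = 0.00138) and 1.68 ± 0.19 on HFD (adjusted p = 4.86e-08). In CD206+ SD the KO values of 698, 933, 746 and 694 CPM overlapped WT. In CD206+ HFD they were 541, 477, 478 and 710 CPM against 295, 226, 289 and 395 CPM in WT (0.87 ± 0.19, adjusted p = 0.000896).

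Dusp5, a nuclear phosphatase specific for ERK, had the smallest p of the members between populations in WT SD. It read 187, 208, 202 and 203 CPM in CD11c+ WT SD and 32.9, 27.6, 29.4 and 23.4 CPM in CD206+ WT SD (2.82 ± 0.16, adjusted p = 2.68e-14). On HFD the WT populations moved towards each other, to 161, 113, 117 and 117 CPM in CD11c+ and 94.7, 57, 65 and 71.6 CPM in CD206+. This fall of 0.65 ± 0.15 in CD11c+ (adjusted p = 0.000681) and rise of 1.35 ± 0.16 in CD206+ (adjusted p = 1.64e-07) made it the 1 member called in both directions by diet, and the difference between the populations passed (-2.0 ± 0.22, adjusted p = 9.29e-08). KO CD206+ read 29.6, 22.5, 28.4 and 26 CPM on SD and 29, 34.9, 26.3 and 29.1 CPM on HFD, below WT on HFD (-1.27 ± 0.16, adjusted p = 3.09e-07). Itgax was also higher in CD206+ WT HFD (20.7 to 50.3 CPM) than in the other CD206+ groups, and its part in the Dusp5 level was not tested.

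Ier2, a nuclear protein of the immediate early set, read 1233, 1166, 1530 and 1496 CPM in CD206+ WT SD and 522, 421, 480 and 515 CPM in CD206+ WT HFD. In CD11c+ WT it read 617, 574, 743 and 708 CPM and 265, 224, 224 and 245 CPM. Neither pair overlapped, and Ier2 fell by 1.49 ± 0.19 (adjusted p = 5.8e-07) and 1.46 ± 0.19 (adjusted p = 1.54e-07). KO was lower than WT on SD in both populations (-0.90 ± 0.18 in CD206+, adjusted p = 0.000508, and -0.92 ± 0.19 in CD11c+, adjusted p = 0.000347).

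Btg2, an antiproliferative gene that p53 and growth signals induce, read 1547, 1281, 1830 and 1702 CPM in CD11c+ WT SD and 468, 404, 396 and 382 CPM in CD11c+ WT HFD, and fell by 1.95 ± 0.20 (adjusted p = 1.87e-09). In KO CD11c+ SD it read 665, 917, 831 and 535 CPM (-1.11 ± 0.19 against WT, adjusted p = 5.17e-05). The higher KO level on HFD (0.55 ± 0.19, adjusted p = 0.0217) ended without CD11c+ KO HFD 2. Of the 11 regulators, 10 fell on HFD in CD11c+ WT, where 22.6% of all genes fell and 23.8% rose. Rhob, a small GTPase of the endosome and cytoskeleton, rose there from 64.7 to 168 CPM in mean (1.38 ± 0.12, adjusted p = 1.12e-10). In CD206+ WT 7 fell and Dusp5 rose, where 13.5% and 14.2% of all genes fell and rose. Btg1 averaged 1365, 658, 1070 and 1053 CPM in CD11c+ WT SD, WT HFD, KO SD and KO HFD and 414 to 531 CPM in CD206+.

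Among the heat shock genes, Hspa1a read 133, 143, 203 and 236 CPM in CD206+ WT SD, 73.9, 47.8, 74.4 and 75.9 in CD206+ WT HFD, 119, 176, 251 and 157 in CD206+ KO SD and 250, 111, 148 and 87.9 in CD206+ KO HFD. In CD11c+ it read 26.4, 30, 39.2 and 30.8 CPM in WT SD, 34.3, 19.6, 21.4 and 31.1 in WT HFD, 45, 51.9, 80.7 and 69.6 in KO SD and 101, 47.8, 36.7 and 37.1 in KO HFD. CD11c+ was lower than CD206+ in all 4 pairs, with log2 differences of -2.5 to -1.35. In CD11c+ both KO groups lay above WT without overlap, by 0.97 ± 0.31 on SD (adjusted p = 0.0205) and 1.06 ± 0.31 on HFD (adjusted p = 0.00787). On HFD the call ended without CD11c+ KO HFD 1 (0.61, adjusted p = 0.107), and on SD without any 1 of 3 libraries. In CD206+ HFD it was 1.13 ± 0.31 (adjusted p = 0.00702), and the call ended without CD206+ KO HFD 1 (0.77, adjusted p = 0.0734).

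Hspa1b read 63.8, 63.1, 91.7 and 104 CPM in CD206+ WT SD, 31, 20.7, 29.3 and 33.6 in CD206+ WT HFD, 50.9, 88, 139 and 91.2 in CD206+ KO SD and 140, 81.4, 67.9 and 44.5 in CD206+ KO HFD. In CD11c+ it read 17.3, 19.3, 22.7 and 13.1 CPM in WT SD, 21.3, 13.7, 16.5 and 21.1 in WT HFD, 26.7, 38.4, 70.8 and 45.6 in KO SD and 106, 33.1, 24.7 and 25.9 in KO HFD. KO library 1 on HFD was the highest of its group in both populations for both genes. The KO differences on HFD were 1.39 ± 0.39 in CD11c+ (adjusted p = 0.00536; 0.62 and adjusted p = 0.147 without CD11c+ KO HFD 1) and 1.54 ± 0.38 in CD206+ (adjusted p = 0.00343). On SD the CD11c+ difference was 1.32 ± 0.39 (adjusted p = 0.0114) and ended without CD11c+ KO SD 3 (adjusted p = 0.0703). In CD206+ SD the differences were -0.02 and 0.19 for Hspa1a and Hspa1b, and neither passed. On HFD they fell in CD206+ WT by 1.4 ± 0.31 and 1.49 ± 0.38 (adjusted p = 0.00102 and 0.00401).

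Dnajb1 read 226, 211, 244 and 255 CPM in CD206+ WT SD and 130, 133, 152 and 102 in CD206+ WT HFD, and fell by 0.86 ± 0.15 (adjusted p = 7.13e-05). In CD11c+ WT it read 123, 103, 123 and 122 CPM on SD and 74.6, 79.8, 87.7 and 73.8 on HFD (-0.58 ± 0.15, adjusted p = 0.00208). On HFD it was higher in KO in both populations (0.46 ± 0.15 and 0.49 ± 0.15, adjusted p = 0.0162 and 0.0166), and these calls ended without CD11c+ KO HFD 1 in CD11c+ and without CD206+ KO HFD 1 or CD206+ WT HFD 4 in CD206+.

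Differences between populations were tested too. The genotype effect differed between populations for 1 and 1 members on HFD (2.16% and 2.2% of all genes), Dusp5 (0.91 ± 0.22, adjusted p = 0.0147) and Rhob (-0.68 ± 0.17, adjusted p = 0.0187), whose call ended without CD206+ KO HFD 3 (adjusted p = 0.0545). With the replicate block the count was 6, where the lowest correlation of same-numbered KO HFD libraries was -0.048. On SD it differed for 9, 3 of them positive (4.1% of all genes) and 6 negative (2.48%), and for 16 with the replicate block. With library totals alone 80.8% of the calls over all genes were positive on SD instead of 62.3%, and the members gave 3 and 5. The diet effect differed between populations in WT for 18 members, 6 positive and 12 negative, against 16.4% and 16% of all genes, and in KO for 0 (0% of all genes; 0 at an unadjusted p under 0.05; DESeq2 0). With library totals alone 63.3% of the WT calls over all genes were positive instead of 50.6%, and the members gave 7 and 11.

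Other lists of the pathway gave the following counts, with all genes at the shares already stated. In CD11c+ WT on HFD, 15 of 25 further immediate early and SRF target genes fell and 3 rose (median log2 difference -0.76). Phlda1 (-2.96 ± 0.19), Csrnp1 (-2.23 ± 0.20) and Tob1 (-1.41 ± 0.15) had the smallest p. In CD206+ WT 6 fell and 3 rose (median 0.01), led by Tob1 (-1.09 ± 0.14) and Arc (-1.84 ± 0.25). In the upstream MAP kinases and factors, 11 of 25 fell and 2 rose in CD11c+ WT, and 2 fell and 4 rose in CD206+ WT. Of 15 other DUSP and Sprouty regulators 4 fell and 5 rose in CD11c+ WT, with Dusp4 at 2.96 ± 0.33, and 5 fell and 2 rose in CD206+ WT, with Dusp6 at -1.15 ± 0.19. Of 22 NF-kB targets, 11 fell in CD11c+ WT, led by the cytokine Il6 (-5.16 ± 0.43), and 1 rose. In CD206+ WT 1 fell, which was Il6 (-2.61 ± 0.40), and 3 rose.

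In KO against WT, 11, 7, 9 and 12 of the 22 NF-kB genes were higher and 2, 7, 4 and 2 lower. The order was CD11c+ HFD, CD11c+ SD, CD206+ HFD and CD206+ SD. Summed over the list, CD11c+ SD libraries read 6317 to 8163 CPM in KO and 8856 to 10537 CPM in WT. In the other pairs the sums of the genotypes overlapped. Ccl5, a T-cell chemokine, had differences of 5.24 ± 0.32, 4.68 ± 0.31, 5.39 ± 0.32 and 6.37 ± 0.35. The further immediate early list gave 9, 1, 1 and 2 higher and 3, 12, 3 and 8 lower. Phlda1 was higher in KO CD11c+ on HFD (1.04 ± 0.18) and lower on SD (-1.42 ± 0.17). The integrated stress response list of 17 tested genes gave 6, 2, 7 and 5 higher and 2, 2, 1 and 3 lower, with Nupr1, a stress-induced cofactor, at 1.56 ± 0.18, 1.96 ± 0.18, 1.02 ± 0.17 and 0.84 ± 0.17. The unfolded protein response list of 14 gave 5, 0, 2 and 1 higher and 0, 3, 1 and 2 lower.

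Genes that respond to cell handling were measured beside these. A list of 25 other genes known to respond to tissue dissociation, such as Socs3, Cebpd, Ppp1r15a and Nfkbia, gave 13 lower and 2 higher on HFD in CD11c+ WT (median -0.37) and 6 and 4 in CD206+ WT (median -0.08). Its summed level was 12384 to 13002 CPM in CD11c+ WT SD and 9292 to 10298 CPM in CD11c+ WT HFD, which do not overlap. In CD206+ WT it was 12055 to 12477 CPM on SD and 10650 to 12289 CPM on HFD, which do. In KO against WT the list gave 8 higher and 3 lower in CD11c+ HFD, 0 and 10 in CD11c+ SD, 4 and 3 in CD206+ HFD and 5 and 6 in CD206+ SD. Its part in the members' differences was not tested. A list of 23 other heat shock response genes, 7 of which are also on the dissociation list, gave 5 higher and 2 lower on HFD in CD11c+ WT (23.8% and 22.6% of all genes), and 4 and 0 in CD206+ WT (14.2% and 13.5%), where Hspa1a, Hspa1b and Dnajb1 fell. In KO against WT it gave 4 higher and 2 lower in CD11c+ HFD, 1 and 3 in CD11c+ SD, 4 and 2 in CD206+ HFD and 6 and 2 in CD206+ SD.

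Markers of other cells also differed between groups, and their part in these results was not tested. Of 12 stromal markers, 11 rose and 1 fell on HFD in CD11c+ WT, and 9 rose and 0 fell in CD206+ WT, with summed levels of 1212 to 1740.5 CPM in CD11c+ WT HFD and 734 to 956 CPM in CD11c+ WT SD. The 8 monocyte markers summed to 13397 to 23154 CPM in CD11c+ WT SD, 2516 to 3444 in CD11c+ WT HFD and 5982 to 11485 in the KO CD11c+ groups, and 6 fell on HFD in CD11c+ WT. In CD206+ they summed to 7641 to 9986 CPM in WT SD and 4037 to 7543 elsewhere. T and NK cell markers summed to 149 to 220 CPM in CD11c+ WT SD and 12.2 to 20.4 CPM in CD11c+ WT HFD, and adipocyte markers to 673 to 1038 CPM in CD206+ WT SD and 343 to 661 CPM in CD206+ WT HFD. In KO against WT on HFD, 9 of the 10 tested T and NK cell markers were higher in CD11c+ and 8 in CD206+, and none was lower. Their sums there were 73.5 to 134 CPM in CD11c+ KO and 86 to 180.1 CPM in CD206+ KO, against 10.3 to 20.9 CPM in CD206+ WT. On SD, 4 were higher and 1 lower in CD11c+, and 7 and 1 in CD206+. The T and NK sums on SD were lower in CD11c+ KO (79.7 to 118 CPM) than in CD11c+ WT (149 to 220 CPM). They were higher in CD206+ KO (110 to 180 CPM) than in CD206+ WT (26.8 to 37.8 CPM). The monocyte markers gave 7 higher and 0 lower in CD11c+ HFD, 2 and 2 in CD11c+ SD, 6 and 0 in CD206+ HFD and 3 and 1 in CD206+ SD. The 10 dendritic cell markers gave 8 and 0, 4 and 2, 3 and 0, and 2 and 4 in the same order. The stromal markers gave 1 and 11, 0 and 2, 0 and 12, and 0 and 4. Endothelial markers had median sums of 303, 170, 102 and 131 CPM in CD206+ WT SD, WT HFD, KO SD and KO HFD. In CD11c+ the medians were 91.9, 92.1, 40.5 and 52.9 CPM in the same order. Mast cell, neutrophil, B cell and mesothelial markers each summed to at most 126 CPM in any library. Defining markers of the sorted cells were present in every group, with Csf1r at 1536 to 5281 CPM and Adgre1 at 462 to 1808 CPM. Their level was not even. The 8 macrophage markers summed to 31543 to 35750 CPM in CD11c+ WT SD and 16204 to 23570 CPM in the other groups. The part of this in the members' levels was not tested.

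Libraries of the same number in the 2 sorts often deviated the same way. For the median member, 11 of 16 same-numbered pairs of CD11c+ and CD206+ libraries lay on the same side of their group means, against 9 for the median gene of all 13453. By condition the members' mean was 3.22 of 4 pairs in KO SD (2.29 over all genes), 3 in WT HFD (2.53), 2.91 in WT SD (2.42) and 2.25 in KO HFD (2.14). In KO SD number 4, 29 of 32 members lay below the group mean in CD11c+ and 29 of 32 in CD206+, with median deviations of -0.21 and -0.54 on the log2 scale, where the all-gene medians were -0.00055 and -0.0043. The summed level was 14726 CPM in that CD11c+ library, against 17637 to 19848 in its replicates. It was 17863 CPM in that CD206+ library, against 28205 to 35175. The dissociation list summed to 10841 to 12087 CPM in the CD11c+ KO SD libraries and 11833 to 13741 CPM in the CD206+ KO SD libraries. Its part in the low level of number 4 was not tested. The labels do not say what the number stands for.

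**Figure D4:**
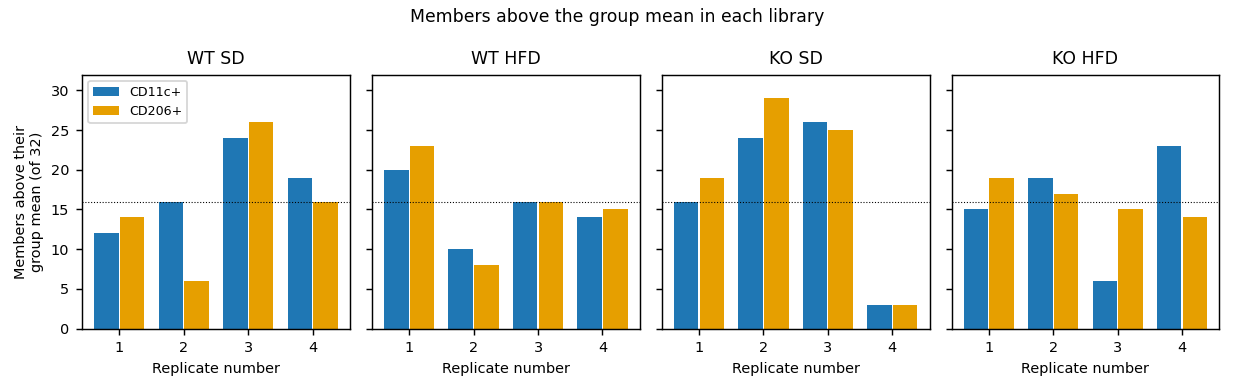
Number of the 32 genes above their group mean in each library (y axis), by genotype, diet and replicate number (x axis), for both sorts. Both KO SD libraries numbered 4 have 3 of 32 genes above the mean.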

How the data were processed

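Bulk RNA-seq of 32 sorted macrophage libraries was used, as raw read counts per gene that the authors deposited. The submitters' processing notes name FastQC 0.11.4, Trimmomatic 0.35, TopHat2 2.1.0, SAMtools 0.1.18 and the builds GRCm38 and mm10; of counting settings and strandedness the labels and headers say nothing. The 5 entries that name no gene were left out; reads outside genes were 5.16 to 11.1% and ambiguous reads 0.992 to 1.48% of a library. From 24421 genes, 13453 passed filterByExpr (minimum count 10). All 8 groups were fitted together with edgeR 4.0.16 (R 4.3.3, TMM factors 0.855 to 1.08, quasi-likelihood test), with 12 comparisons and 6 interactions, Benjamini-Hochberg adjustment within each and a threshold of 0.05. A standard error is the log2 difference over the square root of F.

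The members and lists were chosen with earlier results of these data known. In each role class, up to 4 members with the widest range of group means among those reaching 10 CPM in a group are given in full. Of each pathway list at most 3 genes with the smallest p are named; other members and marker sums were named after their values were seen. Alternatives were DESeq2 1.42.0, its size factors, library totals alone, other filters, only the groups compared, the replicate number as a block, and each library left out. Same-numbered CD11c+ and CD206+ libraries correlated in every pair in WT HFD (lowest 0.180), WT SD (0.112) and KO SD (0.125) but not in KO HFD (-0.048); across genotypes and diets the lowest was -0.174 to 0.0276. Replicates differed by 10.9 or more in chi-square per degree of freedom, so none was a duplicate. The fit was tested on simulated data.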

Additional observations from a re-analysis of the deposited data

Results flagged for a closer look

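Of 256 gene and group pairs, 14 held a library far from its 3 replicates by a gap test that marks about 5% of groups by chance. Fosb read 208 CPM in CD206+ KO SD 4, below 549 to 559 CPM in its replicates. Jun read 740 CPM in CD206+ KO SD 4, below 1254 to 1316 CPM in its replicates. Atf3 read 394 CPM in CD11c+ KO SD 4, below 473 to 478 CPM in its replicates. Nr4a3 read 24.3 CPM in CD206+ WT SD 1, above 14.9 to 16.1 CPM in its replicates. Klf4 read 93.7 CPM in CD206+ KO SD 4, below 178 to 191 CPM in its replicates. Myc read 47 CPM in CD11c+ WT SD 3, above 34.4 to 36.5 CPM in its replicates. Ier5 read 312 CPM in CD11c+ WT HFD 1, above 262 to 268 CPM in its replicates. Ier5 read 928 CPM in CD206+ WT SD 4, above 817 to 825 CPM in its replicates. Dusp1 read 2303 CPM in CD206+ KO HFD 4, above 1694 to 1784 CPM in its replicates. Dusp5 read 161 CPM in CD11c+ WT HFD 1, above 113 to 117 CPM in its replicates. Gadd45b read 362 CPM in CD11c+ WT SD 4, below 531 to 566 CPM in its replicates. Hspa1a read 47.8 CPM in CD206+ WT HFD 2, below 73.9 to 75.9 CPM in its replicates. Hspa1b read 106 CPM in CD11c+ KO HFD 1, above 24.7 to 33.1 CPM in its replicates. Dnajb1 read 103 CPM in CD11c+ WT SD 2, below 122 to 123 CPM in its replicates.

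Effects under the same contrast differed between groups, by the interaction test (edgeR, adjusted p under 0.05), for the following members. In CD11c+ macrophages the HFD effect in KO minus that in WT passed, with log2 values in brackets, for Fosb (1.13), Fosl2 (1.38), Junb (1.27), Jund (0.71), Egr3 (1.94), Nr4a1 (1.64), Nr4a2 (2.38), Nr4a3 (2.1), Klf6 (0.44), Ier2 (1.35), Ier3 (0.85), Ier5 (0.96), Dusp1 (0.92), Dusp5 (0.63), Zfp36 (1.1), Btg1 (1.03), Btg2 (1.66), Rhob (-1.22), Gadd45b (0.86) and Dnajb1 (0.57). In CD206+ macrophages the same difference passed, with log2 values in brackets, for Jun (1.53), Egr1 (1.44), Ier2 (1.2), Ier3 (1.04), Ier5 (0.84), Dusp5 (-1.18) and Dnajb1 (0.85). On HFD the KO effect in CD11c+ minus that in CD206+ passed, with log2 values in brackets, for Dusp5 (0.91) and Rhob (-0.68). On SD the same difference passed, with log2 values in brackets, for Fosl2 (-0.99), Nr4a1 (-1.12), Nr4a2 (-2.16), Nr4a3 (-1.68), Myc (0.97), Ier3 (1.0), Dusp5 (-0.90), Btg1 (-0.68) and Rhob (0.67). In WT the HFD effect in CD11c+ minus that in CD206+ passed, with log2 values in brackets, for Fosl1 (-1.53), Fosl2 (-1.61), Jun (1.35), Jund (-0.64), Egr1 (1.07), Egr3 (-1.53), Nr4a1 (-1.56), Nr4a2 (-2.2), Nr4a3 (-2.26), Klf6 (-0.51), Myc (0.79), Dusp2 (-1.48), Dusp5 (-2.0), Btg1 (-1.31), Btg2 (-1.08), Rhob (1.39), Hspa1a (1.15) and Hspa1b (1.49). Some of these calls ended without 1 library. In WT the Hspa1a call ended without any 1 of 11 of 16 libraries, and Hspa1b without any 1 of 8. Hspa1a also failed with DESeq2 (adjusted p = 0.0565). Nr4a3 on SD ended without any 1 of 11 of 16, and Dnajb1 in CD11c+ without any 1 of 8. For Klf6, Ier3, Dusp1, Dusp5 and Gadd45b in CD11c+, and Rhob on HFD, this held for 1 to 4 libraries. The same range held for Ier3 and Btg1 on SD and Jund in WT.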

How the results depend on the processing

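None of the members' 234 calls reversed direction under any of these alternatives. Directions of members that were not called were not counted. Of the 234, 233 remained with DESeq2, 234 with DESeq2's size factors, 219 with library totals alone, 227 without a filter, 233 with a filter of 1 CPM in 4 libraries, 222 with only the groups compared and 233 with the replicate block. Leaving out 1 library kept 2125 of 2320 calls. The count of members whose genotype effect differed between populations on HFD, 2, became 6 with DESeq2, 6 with the replicate block and 1 to 5 without 1 library. The same count on SD, 9, became 16 with the replicate block and 7 to 13 without 1 library. The cause was not tested. The replicate block changed no other count by over 1.5 times and ended 1 call, Jun in KO against WT CD206+ HFD. Library totals alone moved the median of all genes by over 0.1 in some comparisons, the most for CD11c+ against CD206+ in WT SD (from -0.065 to -0.247). Depth limits Fosl1, at 9 to 40 counts in a library.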
